A study of Mus musculus with 6 samples.

Results

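The 9 genes described here mark the urothelium, the stratified lining of the renal pelvis, ureter and bladder. They are the uroplakin genes Upk1a, Upk1b, Upk2 and Upk3a, the keratin genes Krt5, Krt7 and Krt15, the transcription factor gene Trp63 and the surface protein gene Psca. They were taken by gene symbol from a table of read counts in which all 9 of 34714 rows were found, and all 9 passed the filter on low counts that left 18927 genes. The data are RNA sequencing counts of kidneys from 2 groups of male mice that were 8 weeks old at surgery: 3 libraries from C57BL/6J wild-type mice and 3 from miR-92b-/- mice of the C57BL/6JGpt background, which lack the microRNA gene Mir92b in every cell of the body. Mice of both groups had unilateral ureteral obstruction, in which the left ureter is tied off under pentobarbital, and their kidneys were collected 10 days later. The treatment label and the column names give all 6 kidneys as obstructed, although the treatment protocol calls ligated kidneys nonfibrotic controls. Unobstructed kidneys were not analysed here, so no value below says what obstruction did to these genes. The comparison sets obstructed kidneys without the microRNA against obstructed wild-type kidneys. The named background differs between the groups, so its effect and that of losing the microRNA cannot be told apart.

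Uroplakins are membrane proteins of the umbrella cells, the superficial layer of the urothelium, where they pack into rigid plaques that seal the surface against urine. The tetraspanins encoded by Upk1a and Upk1b each pair with a partner, uroplakin 1a with uroplakin 2 and uroplakin 1b with uroplakin 3a. The basal layer below is marked by the keratins Krt5 and Krt15 and by Trp63, which encodes p63, the transcription factor that maintains stratified epithelia. Krt7, a simple epithelial keratin, is made in all layers of the urothelium and also in collecting ducts. Psca encodes a small lipid-anchored protein of the Ly6 family.

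The library totals ranged from 38738204 to 51932509 counts. The nephron markers Lrp2, the endocytic receptor of the proximal tubule, and Umod, uromodulin of the thick ascending limb, were present in all 6 libraries at 195 to 569.8 and 615 to 3872 CPM (counts scaled to each library's total after TMM correction). The count table has no row for Mir92b, so the deletion was not checked. The labels do not state that each library is a separate animal, and p-values measure only the spread between these libraries.

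The deleted microRNA gene gives rise to miR-92b-3p, which is shown because its seed (bases 2 to 8, in capitals) defines the sites searched. It is followed by miR-92a-3p and miR-25-3p, made from other genes with the same seed. The sequences are those of RefSeq for GRCm38.p6.
miR-92b-3p: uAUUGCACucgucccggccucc
miR-92a-3p: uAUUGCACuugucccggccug
miR-25-3p: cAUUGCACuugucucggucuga

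The longest annotated 3' UTR of each of the 9 genes held 0 matches to the strongest site, the 8mer GTGCAATA, and 0 to its first 7 bases. Trp63 held 1 match to its last 7 bases, TGCAATA, outside an 8mer. Of 15385 tested genes with a 3' UTR, 7% held at least 1 such match. Upk1b and Upk2 held 1 match each to the 6 bases TGCAAT outside any of these longer sites, as 15.8% did at least once. Genes with these letters only within a longer site are not in these shares. The sites are shown with their flanks, the match in capitals. Such a match is a description of the letters and not of binding.
Trp63: tgccaggacaTGCAATAaaatttaaa
Upk1b: ttcaagatgcTGCAATccttagcaga
Upk2: ctagccccacTGCAATcctgccaaca

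None of the 9 genes passed at an adjusted p under 0.05 (edgeR quasi-likelihood test, Benjamini-Hochberg over all genes tested), where 0% of the 18927 genes tested did. Krt5, Krt7, Krt15, Trp63 and Psca were at lower means in the knockout, and the means of Upk1b, Upk2 and Upk3a differed little between the groups. The mean of Upk1a was higher in the knockout (10.3 ± 5.39 CPM against 6.37 ± 5.95 CPM, SD, n = 3). Upk1a, Upk1b, Upk2, Upk3a and Krt5 varied more between libraries of the same group than at least 97.6% of all genes tested. Across the 9 genes, 6 log2 fold changes (knockout over wild type) were below 0 and 3 above, with a median of -0.25, beside -0.02 for all genes tested. In this bulk tissue, a difference in the number of urothelial cells and one in RNA per urothelial cell cannot be told apart. For Krt7, a difference in collecting ducts cannot be told apart from these either.

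Upk1a (chr7:30603092-30612847, minus strand) was measured at 3.72, 13.2 and 2.21 CPM in wild-type replicates 1, 2 and 3, and at 4.63, 10.9 and 15.4 CPM in knockout replicates 1, 2 and 3. The highest knockout and the lowest wild-type library differed by 6.94-fold, yet the groups overlapped, because wild-type replicate 2 lay above 2 of the 3 knockout libraries. The log2 fold change was 0.69 ± 0.68 (SE, n = 3 per group; edgeR adjusted p = 0.752), with a 95% interval from -0.90 to 2.28.

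Upk2 (chr9:44452715-44454976, minus strand), the partner of Upk1a, stood at 3.27, 10.4 and 1.23 CPM in the wild type and 2.58, 5.84 and 8.16 CPM in the knockout. The group means were 4.97 ± 4.81 CPM (SD, n = 3) and 5.53 ± 2.81 CPM. Its log2 fold change of 0.15 ± 0.73 was far smaller than the spread between libraries (edgeR adjusted p = 0.953).

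Upk1b (chr16:38773184-38800328, minus strand) was the most highly expressed uroplakin per kilobase of transcript, at 16.7, 58.2 and 8.47 CPM in the wild type and 11.9, 28.9 and 41.4 CPM in the knockout. Its partner Upk3a (chr15:85017141-85022547, plus strand) stood at 4.54, 21.9 and 2.89 CPM in the wild type and 3.33, 7.6 and 18.8 CPM in the knockout. For both genes the same 2 libraries were highest, wild-type replicate 2 and knockout replicate 3, and the same library was lowest, wild-type replicate 3. The log2 fold changes were -0.02 ± 0.72 for Upk1b and 0.02 ± 0.86 for Upk3a (edgeR adjusted p = 0.997 for each). As folds, the 95% intervals ran from 0.308 to 3.16 for Upk1b and from 0.251 to 4.09 for Upk3a.

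**Figure D1:**
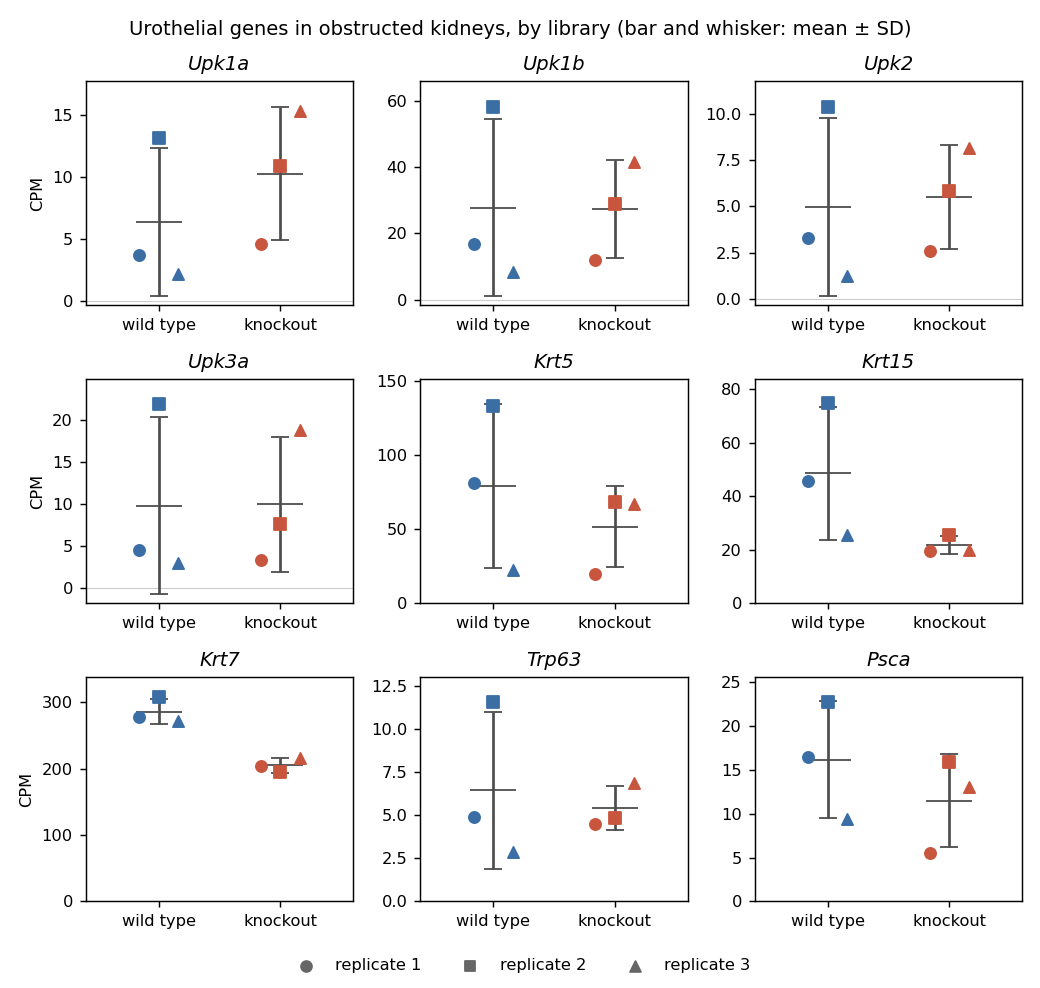
CPM of each urothelial gene (y axis, linear; 1 panel per gene) in the 3 wild-type (blue) and 3 knockout (red) libraries, with marker shapes for the replicate numbers and bars for mean ± SD. Only Krt7 has groups that do not overlap, and wild-type replicate 2 is the highest wild-type library for all 9 genes.

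The 4 uroplakins moved together from library to library. Their summed level was 28.2, 104 and 14.8 CPM in the wild type and 22.4, 53.3 and 83.8 CPM in the knockout, a 7.00-fold range whose highest and lowest libraries were both wild type. Each uroplakin, centred on its own mean log2 CPM, stayed within a root mean square difference of 0.125 (Upk1b) to 0.259 (Upk3a) of their common profile over the 6 libraries, whereas Krt5 was 0.634 and Krt7 1.06 from it. These genes come from the same libraries and share their depth, and each uroplakin is itself part of the common profile. The group difference depended on single libraries. Without wild-type replicate 2, Upk1a, Upk1b, Upk2 and Upk3a were all higher in the knockout, at log2 fold changes of 1.80, 1.13, 1.30 and 1.42, and none was called. Without knockout replicate 3 they were at 0.28, -0.45, -0.25 and -0.85.

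The ratio of partners within a library does not depend on the library's total. Upk1b to Upk3a counts were in a ratio of 3.67, 2.65 and 2.93 in the wild type and 3.58, 3.81 and 2.2 in the knockout, with no separation of the groups (exact two-sided permutation p = 0.9). Upk1a to Upk2 counts were in a ratio of 1.14, 1.27 and 1.79 in the wild type and 1.80, 1.87 and 1.88 in the knockout. All 3 knockout ratios were above all 3 wild-type ratios, by a mean of 0.43 on the log2 scale, and the exact two-sided permutation p of 0.1 was the smallest that 3 against 3 allows (0.4 adjusted over the 4 ratios computed). The gap rests on a thin margin, since wild-type replicate 3 had 104 and 58 counts of these genes, and its ratio has a 95% counting interval (exact binomial) from 1.29 to 2.52 that holds all 3 knockout values.

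**Figure D2:**
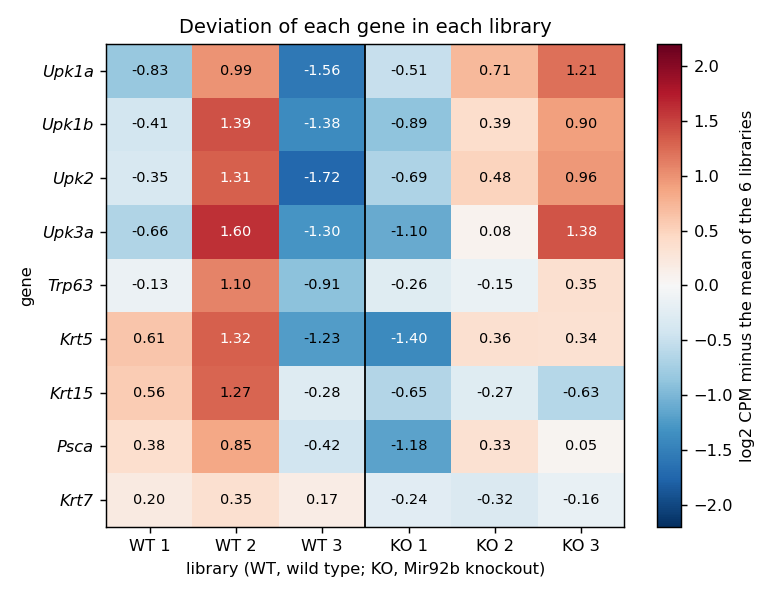
Log2 CPM of each gene (rows) in each library (columns) minus the gene's mean over the 6 libraries, with colour and printed value giving the deviation. The 4 uroplakins are above their means in wild-type replicate 2 and knockout replicates 2 and 3 and below them in the other libraries, while Krt7 is above its mean in the 3 wild-type libraries and below it in the 3 knockout libraries.

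The promoters of Upk1a and Upk3a, which varied together, and of Krt7, which did not vary with them, are shown as 300 bases from 250 before to 50 after the start in RefSeq (GRCm38.p6). The table used held 4 of the 9 genes. Capitals mark motifs found on either strand, given with the share of 27025 promoters of the same length that hold them. The KLF-type box, spelled CCCACCC, was in 17.2% of promoters. The binding motif of zinc finger factors such as Gata3, spelled AGATAA, was in 11.4%. The Sp1-type box, spelled GGGCGG and called the GC box below, was in 35.9%. The CAAT box, spelled CCAAT, was in 37.9%. Windows were also searched for the TATA box, spelled TATAAA (14.2% of promoters). The AP-1 motif, spelled TGANTCA with N for any base, was in 7.93%, and the grainyhead motif, spelled AACCGGTT, was in 0.152%.
Upk1a, chr7:30612685-30612984, minus strand: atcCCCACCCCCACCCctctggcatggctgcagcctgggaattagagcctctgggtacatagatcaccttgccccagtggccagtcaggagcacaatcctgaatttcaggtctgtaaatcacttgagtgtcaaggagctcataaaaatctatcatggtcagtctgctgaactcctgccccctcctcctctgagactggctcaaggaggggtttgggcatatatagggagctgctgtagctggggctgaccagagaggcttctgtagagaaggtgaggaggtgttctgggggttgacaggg
Upk3a, chr15:85016891-85017190, plus strand: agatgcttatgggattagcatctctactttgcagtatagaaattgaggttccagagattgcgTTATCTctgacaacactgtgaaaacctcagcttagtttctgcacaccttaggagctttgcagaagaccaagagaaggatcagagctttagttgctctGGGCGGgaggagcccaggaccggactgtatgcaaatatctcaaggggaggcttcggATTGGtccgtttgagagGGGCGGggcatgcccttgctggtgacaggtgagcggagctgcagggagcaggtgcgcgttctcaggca
Krt7, chr15:101412153-101412452, plus strand: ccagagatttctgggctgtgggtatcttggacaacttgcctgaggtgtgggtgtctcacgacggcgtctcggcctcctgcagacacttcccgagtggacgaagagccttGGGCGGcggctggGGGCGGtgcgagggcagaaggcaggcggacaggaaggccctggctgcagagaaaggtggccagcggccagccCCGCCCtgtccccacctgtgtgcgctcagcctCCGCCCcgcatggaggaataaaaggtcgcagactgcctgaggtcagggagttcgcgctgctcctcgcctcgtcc

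The Krt7 promoter had 4 GC boxes and a GC content of 66.3%, against 54.7% for Upk1a and 52.3% for Upk3a. The Upk1a promoter had 2 KLF-type boxes that overlap by 1 base, and the Upk3a promoter had 2 GC boxes, 1 GATA motif and 1 CAAT box. The exact letters given above for the TATA box, AP-1 and grainyhead motifs were not found in these 3 windows, nor in that of Krt5. Other spellings were not searched, such as the letters TATATA, which the Upk1a window holds.

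Krt7 (chr15:101411043-101430313, plus strand) was measured at 278, 308 and 272 CPM in the wild type and 205, 194 and 216 CPM in the knockout. Each knockout library was below each wild-type library, and the group means were 286 ± 18.8 and 205 ± 11.0 CPM (SD, n = 3). The log2 fold change was -0.48 ± 0.14 (SE), with a 95% interval from -0.81 to -0.15, an unadjusted edgeR p of 0.00963 and an edgeR adjusted p of 0.627. The exact two-sided permutation test gave p = 0.1, the smallest possible, and 0.9 adjusted over the 9 genes. Krt7 was 1 of 9 members with groups that did not overlap and lay lower in the knockout, where 7.2% of all genes tested did so. Its value stayed between -0.52 and -0.42 when each library was left out in turn. The opposite strand holds Gm671, whose exons share 77 bases with those of Krt7 and whose counts came to at most 2.51% of Krt7 counts in any library.

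Krt15 (chr11:100131758-100135928, minus strand), a keratin of basal cells, had the largest difference of the 9 genes. It stood at 45.6, 74.7 and 25.4 CPM in the wild type and 19.7, 25.6 and 19.9 CPM in the knockout. The groups met at their edges, with knockout replicate 2 just above wild-type replicate 3. The log2 fold change was -1.16 ± 0.35, or 0.448-fold, with an unadjusted edgeR p of 0.0118 and an edgeR adjusted p of 0.627 (exact two-sided permutation p = 0.2). Krt7 and Krt15 were the 2 of 9 members at an unadjusted p under 0.05 on the lower side, where 3.52% of all genes tested were. Without wild-type replicate 2, Krt15 was at -0.70.

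Krt5 (chr15:101707070-101712898, minus strand), the defining keratin of basal cells, was measured at 81.3, 133 and 22.6 CPM in the wild type and 20.1, 68.1 and 67.0 CPM in the knockout. Both groups had low and high libraries, and the log2 fold change was -0.61 ± 0.66 (edgeR adjusted p = 0.772). Without wild-type replicate 2 it was -0.002, and without wild-type replicate 3 it was -1.04. Trp63 (chr16:25683763-25892102, plus strand), the basal transcription factor gene, stood at 4.89, 11.6 and 2.85 CPM in the wild type and 4.47, 4.85 and 6.87 CPM in the knockout. All 3 knockout values of Trp63 lay within the range of the wild type. Its log2 fold change was -0.25 ± 0.48 (edgeR adjusted p = 0.869) and turned to 0.48 without wild-type replicate 2.

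Psca (chr15:74714839-74717069, plus strand) was measured at 16.4, 22.7 and 9.38 CPM in the wild type and 5.54, 15.8 and 13.1 CPM in the knockout. The groups overlapped, with knockout replicate 1 lowest. The log2 fold change was -0.49 ± 0.43 (edgeR adjusted p = 0.727), and it was -0.16 without either wild-type replicate 2 or knockout replicate 1.

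**Figure D3:**
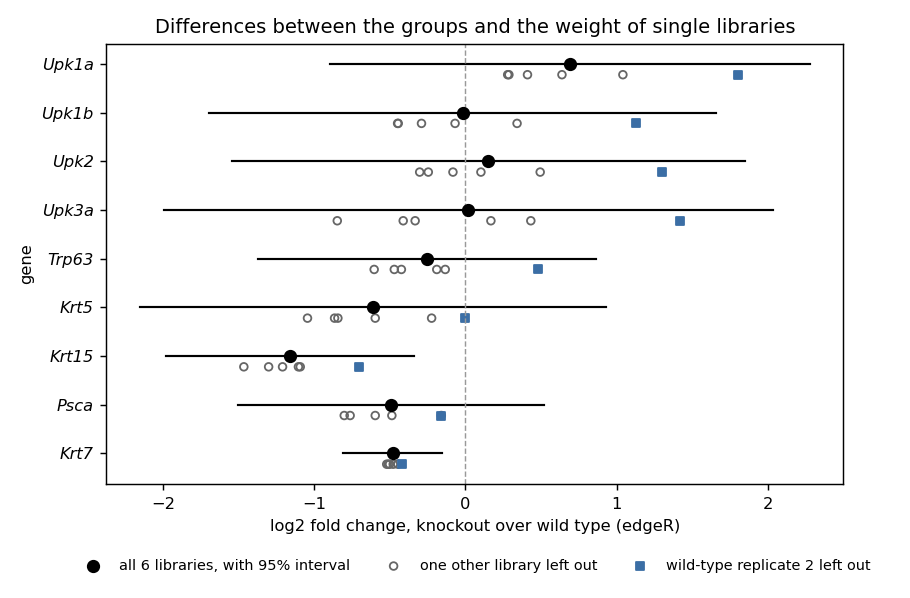
Log2 fold change of each gene (knockout over wild type, edgeR; x axis) with all 6 libraries and its 95% interval (black), and with 1 library left out (open circles; blue squares for wild-type replicate 2). Krt7 and Krt15 stay below 0 in each case, while without wild-type replicate 2 the uroplakins lie between 1.13 and 1.80.

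Set against the mean log2 CPM of the 4 uroplakins in the same library, Krt15 stood at 3.04, 1.87 and 3.13 in the wild type and 2.07, 1.23 and 0.17 in the knockout, with group means of 2.68 and 1.16 on the log2 scale. Krt5 stood at 3.87, 2.70 and 2.96 against 2.10, 2.64 and 1.92, without overlap but with a gap of less than 0.1 between the nearest libraries. Psca stood at 1.57, 0.149 and 1.69 against 0.245, 0.54 and -0.44, with overlap. Krt7 and Trp63 also had lower means in the knockout, at 4.40 against 5.37 and -0.86 against -0.33, with overlap. The share of all genes whose groups would separate against the same uroplakin mean was not computed. No test was made of these scores over several members. Of the single ratios, Krt15 to Krt5 counts were at 0.561, 0.562 and 1.12 in the wild type and 0.977, 0.376 and 0.297 in the knockout (exact two-sided permutation p = 0.4), and Trp63 to Krt5 counts gave p = 0.6 by the same exact test. Neither ratio between basal genes separated the groups.

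**Figure D4:**
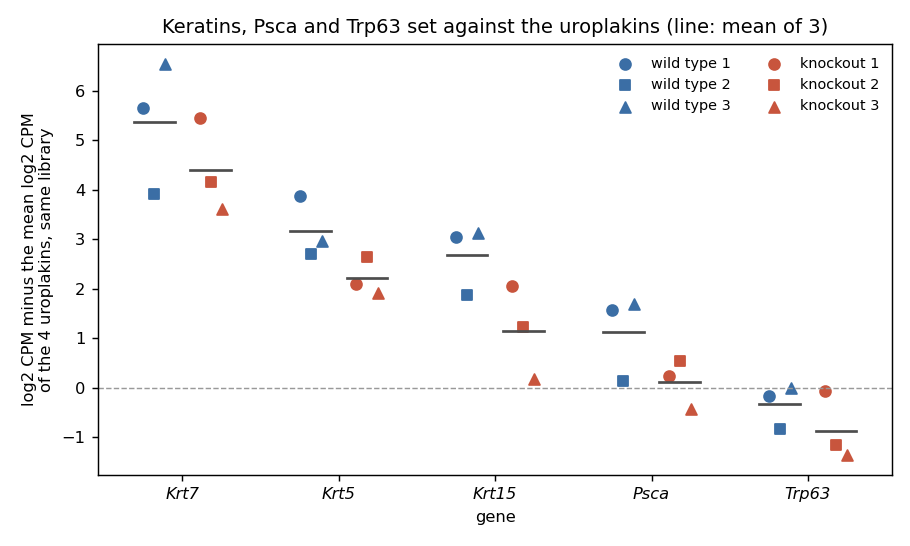
Log2 CPM of Krt7, Krt5, Krt15, Psca and Trp63 minus the mean log2 CPM of the 4 uroplakins in the same library (y axis), in wild-type (blue) and knockout (red) libraries, with lines for group means. For Krt15 the means are 2.68 and 1.16, and wild-type replicate 2 lies below knockout replicate 1.

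Levels were compared between genes as CPM per kilobase of the annotated principal transcript, as means over the 6 libraries. Krt7 was highest at 60.0, followed by Krt5 at 29.8, Krt15 at 20.7, Psca at 16.1, Upk1b at 14.6, Upk3a at 9.02, Upk1a at 5.87, Upk2 at 4.85 and Trp63 at 1.26. The ranges of all neighbours in this order overlapped. Within libraries, Krt7 was above Krt5, Upk1b above Upk3a and Upk2 above Trp63 in 6 of 6 libraries, and each of the other neighbouring pairs kept its order in 4 of 6.

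Of 15 genes of urothelial differentiation, 0 passed at an adjusted p under 0.05 with edgeR, 9 were below 0 and 6 above, and the median log2 fold change was -0.23. The simple epithelial keratins Krt8 and Krt18, which tubules also make, stood at -0.23 ± 0.17 and -0.29 ± 0.16. Krt8 was lower in all 3 knockout libraries without overlap. It was 1 of 15 genes to be so, near the 7.2% of all genes tested. The keratin Krt4 and the Ly6 family gene Ly6d were at -0.74 ± 0.41 and -0.78 ± 0.65. Snx31, a sorting nexin of the uroplakin degradation route, and Rab27b, a small GTPase of vesicle delivery to the umbrella cell surface, were picked after their values were seen. Snx31 stood at 7.67, 25.0 and 6.68 CPM in the wild type and 9.03, 17.2 and 18.8 CPM in the knockout. Wild-type replicate 2 was highest, as for Upk1b and Upk3a. Not every gene of this list followed the uroplakins. Krt20, also picked after its values were seen, stood at 37.7, 96.3 and 109 CPM in the wild type. In the knockout it stood at 106, 111 and 72.6 CPM.

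Of 10 transcription factors of urothelium, 0 passed with edgeR, 8 were below 0 and 2 above, and the median was -0.15. Klf5, Gata3, Ovol1 and Elf3 had the smallest p, at log2 fold changes of 0.68, -0.31, -0.26 and -0.19. Of 14 measured genes of basal and stratified epithelium, 12 were above 0 and 2 below, with a median of 0.25 and 0 calls with edgeR. Ngfr, Itga6 and Lama3 were at log2 fold changes of 0.85, 0.34 and 0.26. Of 10 junction genes 4 were above 0, with a median of -0.03, and Jup, plakoglobin, was higher in all 3 knockout libraries at 0.40 ± 0.17. Jup was 1 of 10 without overlap, beside 16.1% of all genes tested in either direction. Of 6 measured genes of cornified epithelium 5 were below 0, with a median of -0.34, and Krtdap and Dsg1a had no count in any library.

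Genes whose profile over the 6 libraries was nearest to the uroplakins were sought among 14255 genes at a mean of at least 1 CPM, by the root mean square difference of centred log2 CPM. The nearest were Fer1l4 (0.278), Nipal4 (0.308), Trim29 (0.332), Fat2 (0.338), Grhl3 (0.358) and Cers3 (0.365). Grhl3 is a grainyhead transcription factor of urothelium and epidermis, and Cers3 is a ceramide synthase. Grhl3 stood at 2.73, 5.79 and 1.49 CPM in the wild type and 1.71, 4.29 and 4.85 CPM in the knockout. Nearest to the mean profile of Krt5, Krt15 and Trp63 were Gsta4 (0.162), Cbr2 (0.196), Foxa1 (0.210), Sprr2a2 (0.216), Padi4 (0.230) and Vsig2 (0.231). Sprr2a2 has near-identical copies, so its counts are uncertain. Foxa1, a pioneer factor of urothelium, stood at 4.47, 9.27 and 3.02 CPM in the wild type and 2.65, 4.40 and 5.28 CPM in the knockout. None of these 12 genes passed, with edgeR adjusted p of 0.635 or more.

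Markers of other cell types that a dissected kidney can hold also differed between libraries. The 10 smooth muscle markers summed to 403 to 929 CPM in the wild type and 387 to 994 CPM in the knockout, with knockout replicate 3 highest and knockout replicate 1 lowest. Acta2 and Tagln made up most of the sum in knockout replicate 3, at 356 and 333 CPM. Smtn and Lmod1 were also highest there. Myh11, Actg2 and Cnn1 were instead highest in wild-type replicate 1, at 59.4, 21.3 and 15.55 CPM, and Des, Synpo2 and Myocd in knockout replicate 2. The 7 adipocyte markers summed to 58.3 to 101 CPM in the wild type and 43.3 to 305 CPM in the knockout. Fabp4 made up most of the sum in every library except knockout replicate 1, with 98.8 of 101 CPM in wild-type replicate 1. Adipoq, adiponectin, was at 19.4 CPM in knockout replicate 1 and 4.59 CPM in wild-type replicate 2, against at most 0.516 CPM in the other libraries. The 7 mesothelium markers summed to 65.6 to 131 CPM in the wild type and 101 to 115 CPM in the knockout. Gpm6a was the largest part of the sum in every library, at 28.5 to 108 CPM. Of the 5 markers tested, 3 were above 0 and 2 below. Muc16 and Lrrn4 did not pass the filter. Muc16 was at 0 to 0.094 CPM in the wild type and 0.129 to 1.73 CPM in the knockout, and Lrrn4 at 0 to 0.162 and 0.064 to 2.38 CPM. The 7 skeletal muscle markers summed to 5.64 to 6.47 CPM in the wild type and 0.923 to 1.11 CPM in the knockout, and 6 of the 7 were lower in all 3 knockout libraries without overlap, where 7.2% of all genes tested were. The 9 collecting duct markers, of a cell type that also makes Krt7, summed to 354 to 489 CPM in the wild type and 196 to 406.5 CPM in the knockout. Log2 fold changes of all 9 were below 0 (median -0.54), and Fxyd4, Elf5, Aqp4 and Aqp2 were lower in all 3 knockout libraries, at log2 fold changes of -0.76, -1.49, -1.17 and -1.26 (0 calls with edgeR). These are 4 of 9 without overlap, again beside 7.2% of all genes tested. The 7 proximal tubule markers summed to 1320 to 2635 CPM and 783 to 2310 CPM, the 4 of the thick ascending limb to 1557 to 4666 CPM and 806 to 4439 CPM, the 5 of injured tubule to 3425 to 4928 CPM and 5123 to 5971 CPM, and the 8 of the cell cycle to 286 to 470.4 CPM and 274 to 602 CPM. The part of these cell types in the values of the 9 genes was not tested, and how much of the renal pelvis was kept with each kidney is not given in the sources used here.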

How the data were processed

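The values are raw read counts by gene symbol, as the authors deposited them, with each library in its own column. The submitters' processing notes name GRCm38 and mm10. Aligner, counter and strandedness: not given in the sources used here. Per the labels' protocols, libraries came from an mRNA kit. Groups came from the titles, and columns were matched to samples by the names in the descriptions; 0 columns were left unmatched. Of 34714 rows, 8308 were 0 in every library.

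Genes were filtered with filterByExpr (18927 kept, holding 99.96% of all counts), scaled by TMM and compared with the edgeR 4.0.16 quasi-likelihood test (robust, group as the only term) in R 4.3.3, with Benjamini-Hochberg adjustment over all genes and a threshold of 0.05. A prior count of 2 entered log2 CPM. The SE was taken as |log2 fold change| over the square root of F, and 95% intervals use the fit's degrees of freedom. The pipeline was tested on simulated data, and most small differences were missed. Simulated differences of 1.5-fold were called in only 4.48% of cases. For those of 2-fold the share was 37.3%, and it reached 98.5% for 4-fold ones. There were 9 false calls. The edgeR coefficient of variation between libraries of a group was 26.9% as the common value of the genes tested. It was 57.5 to 70.5% for the uroplakins and 54.6% for Krt5. Trp63, Psca and Krt15 were at 43.0%, 38.6% and 31.3%, and only Krt7 was below the common value, at 15.2%. The share called at the spread of each of the 9 genes was not tested. The lack of calls here therefore does not show that the 9 urothelial genes were unchanged. No library was a copy of another: chi-square per degree of freedom was at least 44.7 between libraries of a group. Coordinates, transcript lengths and 3' UTRs are those of GENCODE M21 (GRCm38).

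The 9 genes and the 14 other lists were chosen with earlier results of these data known. The text names the 9 genes and up to 4 genes per list with the smallest p at a mean of at least 1 CPM. It also names the 6 genes nearest each of the 2 profiles. Other names, such as Lrp2, Umod, Gm671, Krtdap, Dsg1a, Muc16, Lrrn4, Snx31, Rab27b, Acta2, Tagln, Smtn, Myh11, Actg2 and Cnn1, were chosen after their values were seen. A further gene within this rule is not reported here. Genes named Gm and a digit, or ending in Rik, were left out of the profile search. Alternatives covered scaling, filter, test (DESeq2 1.42.0, limma-voom 3.58.1), robust fitting, a replicate block and leaving out each library.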

Additional observations from a re-analysis of the deposited data

How the results depend on the processing

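In each of 15 alternatives, 0 of the 9 urothelial genes were called. Over all genes, where edgeR as described called 0 (1495 at an unadjusted p under 0.05, edgeR), DESeq2 called 62, limma-voom 3, edgeR with no filter 2 and edgeR with the replicate block 1, and leaving out single libraries gave 0 to 1. No pairing of the libraries by replicate number was seen. Deviations of same-numbered libraries correlated across genes at -0.282, 0.179 and -0.288, and those of unlike-numbered libraries at -0.196 to 0.37. Krt7, Krt15, Krt5 and Psca were lower in the knockout in all 15 alternatives. The median of the 9 genes ranged from -0.52 to 0.48 over single libraries left out, with the positive value without wild-type replicate 2, and was -0.75 with limma-voom and -0.05 with the replicate block. Directions turned with limma-voom for Upk1a (-0.038), Upk2 (-0.54) and Upk3a (-1.08), with the replicate block for Upk1b (0.19), and for Upk3a with upper-quartile factors (-0.019) and library size alone (-0.034). With single libraries left out, log2 fold changes ranged from -0.45 to 1.13 for Upk1b, -0.30 to 1.30 for Upk2, -0.85 to 1.42 for Upk3a and -0.60 to 0.48 for Trp63. The cause was not tested. Upk1a and Upk2 had 58 to 773 counts per library, and the part of counting error in the spread of their levels was not tested.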
